A study of Mus musculus with 8 samples.

Results

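The 10 genes described here encode transcription factors that set and keep the identity of photoreceptors: Otx2, Crx, Neurod1 and Prdm1, which act in the precursors of both rods and cones, Nrl, Nr2e3, Esrrb and Mef2d, which act in rods, and Thrb and Rxrg, which act in cones. They were chosen by name, and each matched 1 of the 54532 rows of the gene tables. Their coordinates below are those of the whole gene, exons and introns, in GRCm38. All 10 were among the 17725 genes with enough reads to be tested. RNA sequencing had been done on retina of rd10 mice, in which a mutation of the rod phosphodiesterase subunit gene Pde6b makes rods, and later cones, degenerate. Every library of both groups therefore carried the rd10 background. The 4 libraries of the sIVs group, numbered 2 to 5, are read from the labels as retinas given small intracellular vesicles, and the 4 of the PBS group, numbered 1 to 4, as the controls given phosphate-buffered saline. By its title, the series asks about vesicle uptake, delivery and protection of the retina. The sources used here do not give the source or dose of the vesicles, the route, or the age, sex and time at sampling. Each library is labelled as a replicate biosample with no statement on animals, so a p-value reflects only how far these libraries vary, which may be technical.

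As background, rods and cones arise from a shared precursor that Otx2, a homeodomain factor, commits to the photoreceptor fate. Crx, a related homeodomain factor, then switches on the genes of both cell types, while Prdm1, a zinc finger repressor, holds back the bipolar cell fate and Neurod1, a basic helix-loop-helix factor, supports the survival and differentiation of photoreceptors. Nrl, a basic leucine zipper factor, sends the precursor to the rod fate and switches on Nr2e3, an orphan nuclear receptor that represses cone genes in rods. Esrrb is an orphan nuclear receptor needed for rod survival, and Mef2d, a MADS-box factor, works with Crx on photoreceptor genes. Thrb, the thyroid hormone receptor beta gene, includes an isoform needed for the middle-wavelength opsin, and Rxrg, a retinoid X receptor gene, acts in cones to restrain the short-wavelength opsin. Otx2 is also expressed in bipolar cells and Neurod1 in amacrine cells, so neither is a pure photoreceptor marker.

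The promoters of 4 factors are shown, those of Nrl, Nr2e3 and Crx, which were far below PBS in 2 of the sIVs libraries, and of Neurod1, which was less so. Esrrb and Prdm1 were also far below PBS there, and their promoters are not shown. The sequences are from RefSeq (GRCm38.p6) and run 5′ to 3′ along the gene from 250 bases before to 50 bases after the annotated start. All 4 genes lie on the minus strand, with windows at chr14:55524203-55524502 for Nrl, chr9:59950030-59950329 for Nr2e3, chr7:15879906-15880205 for Crx and chr2:79456587-79456886 for Neurod1. Capitals mark any match, on either strand, to TAATCC (bound by CRX and OTX2), TGCTGA (the core of an NRL site), AGGTCA (the core of a nuclear receptor site) or CANNTG (the E-box bound by NEUROD1 and other helix-loop-helix factors).
Nrl: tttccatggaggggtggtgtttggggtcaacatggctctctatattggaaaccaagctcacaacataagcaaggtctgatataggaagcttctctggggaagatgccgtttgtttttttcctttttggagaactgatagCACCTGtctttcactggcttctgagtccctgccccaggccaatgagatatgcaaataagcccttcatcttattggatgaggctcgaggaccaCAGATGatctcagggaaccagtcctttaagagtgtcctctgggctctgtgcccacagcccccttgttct
Nr2e3: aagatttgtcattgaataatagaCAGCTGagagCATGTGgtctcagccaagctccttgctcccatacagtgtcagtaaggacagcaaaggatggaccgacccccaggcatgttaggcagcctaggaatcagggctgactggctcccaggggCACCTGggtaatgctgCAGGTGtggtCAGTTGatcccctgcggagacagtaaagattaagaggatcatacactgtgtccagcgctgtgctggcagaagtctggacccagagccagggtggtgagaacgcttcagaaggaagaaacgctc
Crx: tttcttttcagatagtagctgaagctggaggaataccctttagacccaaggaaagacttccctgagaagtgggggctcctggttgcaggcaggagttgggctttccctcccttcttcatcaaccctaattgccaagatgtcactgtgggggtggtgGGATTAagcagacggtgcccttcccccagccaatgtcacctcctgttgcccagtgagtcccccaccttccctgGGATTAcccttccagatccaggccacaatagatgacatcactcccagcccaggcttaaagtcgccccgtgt
Neurod1: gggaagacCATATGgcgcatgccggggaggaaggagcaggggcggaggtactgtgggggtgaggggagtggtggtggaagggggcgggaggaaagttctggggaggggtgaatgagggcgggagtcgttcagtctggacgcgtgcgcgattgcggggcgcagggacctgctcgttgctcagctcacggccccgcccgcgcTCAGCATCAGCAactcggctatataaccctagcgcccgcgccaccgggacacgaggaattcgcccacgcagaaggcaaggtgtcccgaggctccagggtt
Crx held 2 matches to the homeodomain letters, at positions -94 and -21 from the start. Neurod1 held 2 adjacent NRL cores, at -50 and -44, and an E-box at -242. The Nrl window held 2 E-boxes, at -111 and -19, and the Nr2e3 window held 5, at -227, -217, -99, -83 and -73. No matches overlapped in these 4 windows. The 10 factors had 16 such windows in all. The homeodomain letters were in 3 of these 16, against 7.06% of the 32817 mouse windows. The NRL core was in 4 of 16 (19.5% of all windows), the nuclear receptor core in 2 of 16 (16.3% of all windows) and the E-box in 11 of 16 (72.3% of all windows). The RefSeq start lay 729, 10580, 13 and 115 bases inside the gene's outer edge in the deposited annotation for Nrl, Nr2e3, Crx and Neurod1, so the Nr2e3 window lies well within the annotated gene. A match is a description of the letters only.

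Library totals ran from 15039385 to 16989737 counts in sIVs and from 14640235 to 15948291 counts in PBS, and no 2 libraries were repeats of each other within counting noise. The sIVs libraries were not alike. Pairs were compared by a chi-square of the counts per gene, which is larger for less alike libraries. Among PBS libraries it ran from 3.669 to 12.109. Between sIVs library 2 and the PBS libraries it ran from 3.496 to 12.062, about as among PBS libraries. For sIVs library 5 against PBS it ran from 14.284 to 23.746, and between sIVs libraries 2 and 5 it was 13.276. Libraries 3 and 4 stood apart from libraries 2 and 5 and from PBS: the median of the 25 rod effector genes (transducin, phosphodiesterase, disc proteins and others) lay at -1.79 and -1.87 in log2 CPM relative to the PBS mean in libraries 3 and 4, and at 0.08 and -0.25 in libraries 2 and 5. CPM is the count scaled to the library's total, itself adjusted by TMM (trimmed mean of M values). The summed rod effectors ran from 13030 to 55570 CPM in sIVs and from 49330 to 57980 CPM in PBS. In the same libraries 3 and 4 the median of 14 microglial markers lay at 1.02 and 1.36, and their sum ran from 215.6 to 671.3 CPM in sIVs and from 215.8 to 344.8 CPM in PBS. Müller glial markers, 12 in number, had medians of 0.53 and 0.72 there, and the 18 bipolar cell markers 0.16 and 0.18. Of the microglial markers 12 of 14 had positive log2 fold changes, of the Müller glial markers 8 of 12 and of the bipolar markers 11 of 18. Their median log2 fold changes were 0.66, 0.15 and 0.03, and turned to -0.28, -0.31 and -0.17 without libraries 3 and 4. In libraries 2 and 5 the microglial medians were -0.11 and -0.47 and the Müller glial ones -0.16 and -0.43, relative to the PBS mean. The summed Müller glial markers ran from 5048 to 8649 CPM in sIVs and from 6614 to 7982 CPM in PBS, and the bipolar markers from 2092 to 2772 CPM in sIVs and from 2192 to 2475 CPM in PBS. The part of these cells in the levels of the factors was not tested. No marker of these lists was at 0 in every library. The biological coefficient of variation was 22.3% among sIVs libraries and 8.8% among PBS libraries. The fold changes of the factors, the lists and the genes named beside them are given with and without sIVs libraries 3 and 4, a choice made after their values were seen. Where a value is given per library, the order is sIVs 2, 3, 4 and 5, then PBS 1, 2, 3 and 4.

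The 10 factors all had lower mean levels in sIVs than in PBS, by amounts that differed between genes and libraries. Nrl and Esrrb were at 0.581 and 0.555 times the PBS level over the 4 libraries, Prdm1 at 0.67 times, Nr2e3, Crx and Thrb between 0.749 and 0.787 times, and Rxrg, Otx2, Mef2d and Neurod1 between 0.878 and 0.954 times. No factor passed the edgeR quasi-likelihood test after Benjamini-Hochberg adjustment over 17725 genes, where 0% of all genes passed. At an unadjusted p under 0.05, 2 of 10 factors were lower, Thrb and Prdm1, against 5.63% of all genes, and 15.2% of all genes passed in either direction. DESeq2 called 0 of 10 after adjustment, against 3.22% of all genes, and edgeR with no filter on low counts 0 of 10, against 0.45%. With limma-voom and sample quality weights, which gave sIVs libraries 3 and 4 more weight than 2 and 5, 9 of 10 were called, all but Rxrg, against 28.1% of all genes. The median log2 fold change of the factors was -0.35, against -0.005 over all genes. Without sIVs libraries 3 and 4 the direction was not shared: 5 of the 10 log2 fold changes were negative and the other five positive, and 0 of 10 passed the adjusted edgeR test, against 0.0164% of all genes.

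The 2 low libraries carried most of the difference. In both sIVs library 3 and sIVs library 4, 9 of the 10 factors lay below every PBS library, Rxrg being the exception, against 25.2% of all genes tested. In both libraries 5 factors (Nrl, Esrrb, Nr2e3, Crx and Prdm1) lay at or below -1 in log2 CPM relative to the PBS mean, against 2.45% of all genes. In sIVs libraries 2 and 5, by contrast, Crx and Neurod1 were above every PBS library, 2 of 10 against 11.3% of all genes, and Thrb was below every PBS library, 1 of 10 against 11.1%. The median over the factors, on the same scale, was 0.06, -0.90, -0.87 and -0.07 in sIVs, and 0.02, 0.02, 0.01 and -0.07 in PBS. In RNA from whole retina, fewer cells of a type and less RNA per cell cannot be told apart.

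**Figure D1:**
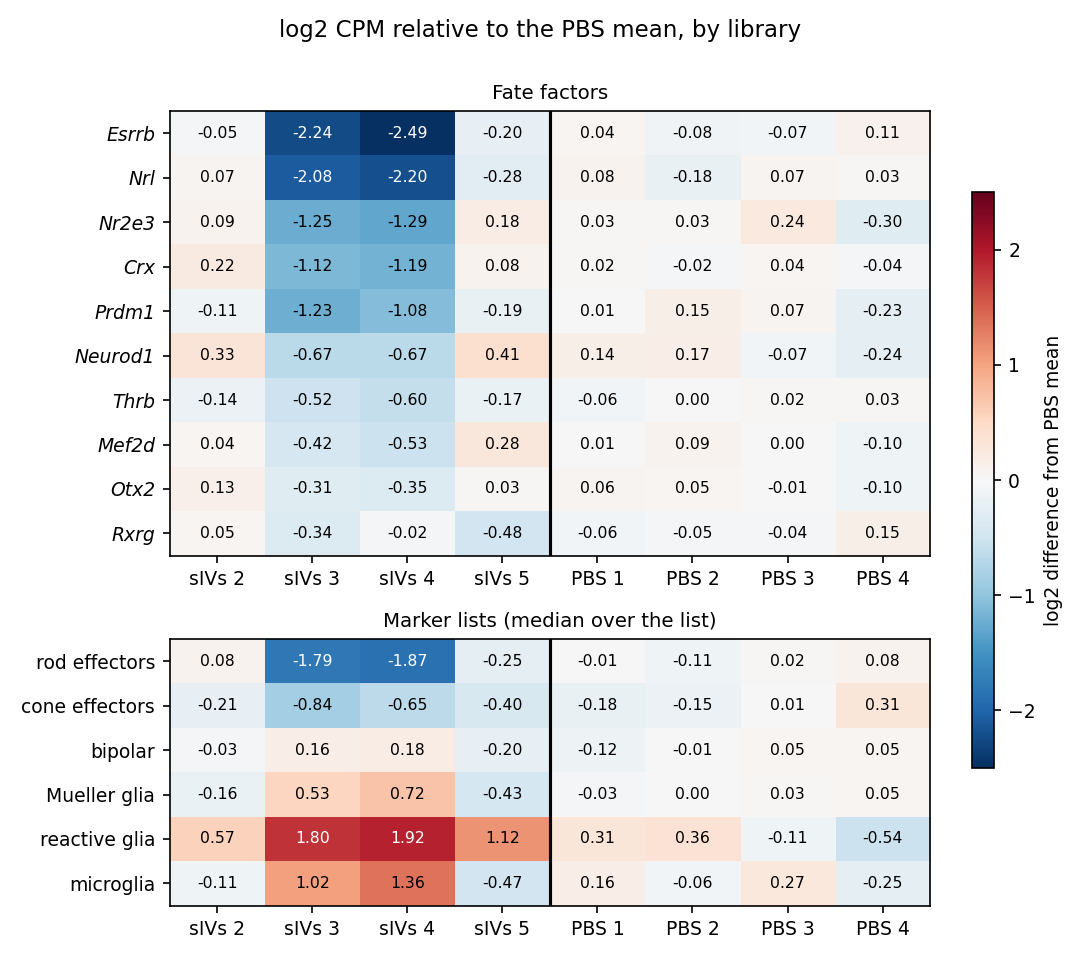
log2 CPM of each factor (top) and the median of 6 marker lists (bottom), relative to the PBS mean, in the 4 sIVs libraries on the left and the 4 PBS libraries on the right. sIVs libraries 3 and 4 reach -2.49 for Esrrb and -2.20 for Nrl, while the PBS libraries stay between -0.30 and 0.24 for all 10 factors.

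The factors spanned a wide range of transcript abundance. In FPKM, which accounts for transcript length, Crx was the most abundant in both groups, at 223 ± 110 FPKM in sIVs and 286 ± 8.14 FPKM in PBS (SD, n = 4 each, as for all means that follow). In PBS the order ran on through Neurod1 and Nrl, then Nr2e3 and Mef2d, then Esrrb, Otx2 and Thrb, and ended with Prdm1 and Rxrg. Within the pairs Neurod1 and Nrl, Nr2e3 and Mef2d, and Prdm1 and Rxrg the ranges of the PBS libraries overlapped, and all other neighbours in the order were separate. In sIVs the spread was so large that all neighbours from Crx down to Esrrb overlapped. There Esrrb stood below Otx2, Thrb was separate on both sides, and Rxrg and Prdm1 overlapped at the bottom. Counts per factor and library ran from 107 to 18788, so that counting error was between 0.73% and 9.70%.

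**Figure D2:**
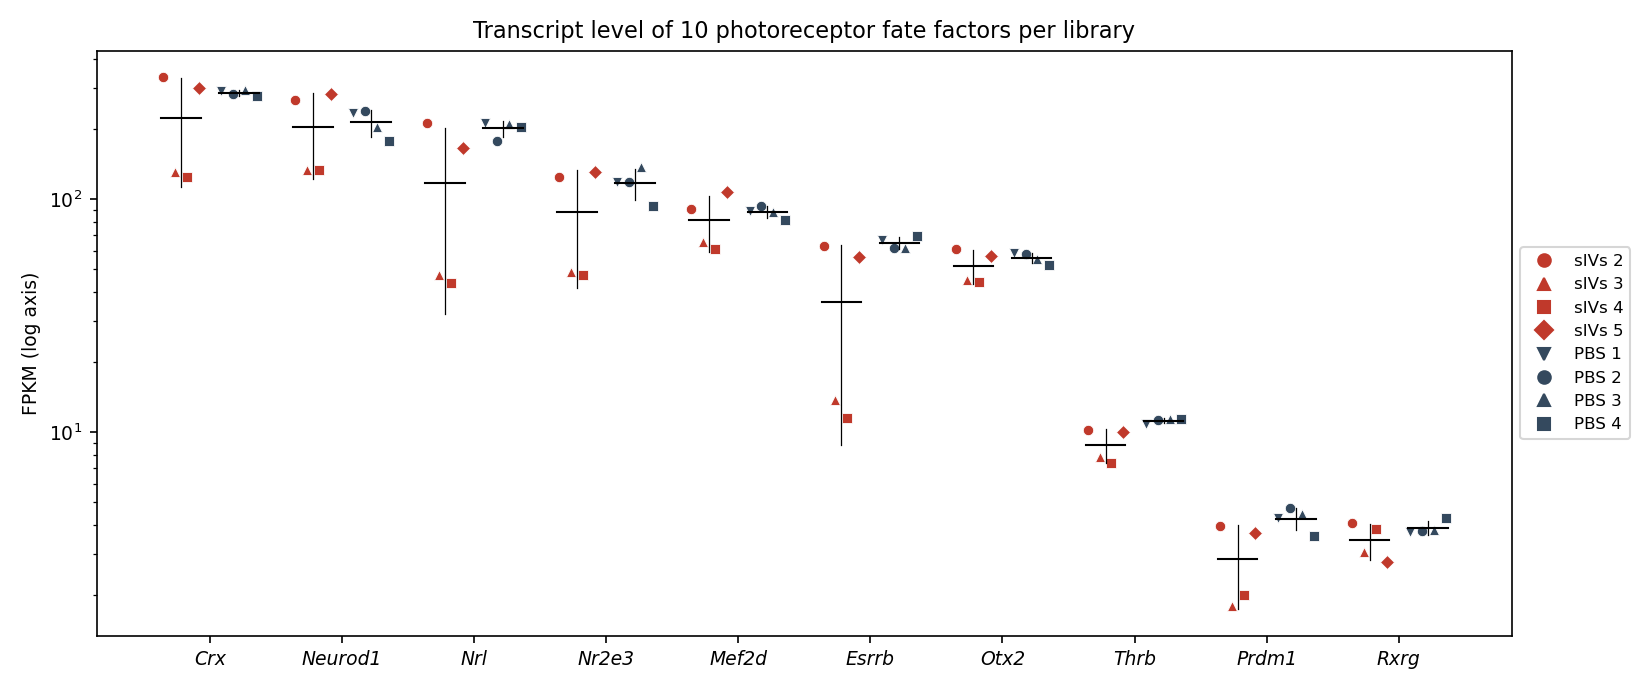
FPKM of the 10 factors on a log axis, with 1 point per library, horizontal bars for the group means and vertical lines for the SD, sIVs left of PBS for each gene. The sIVs points fall into a high pair (libraries 2 and 5) and a low pair (libraries 3 and 4) for 9 of the 10 factors, all but Rxrg.

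Among the factors shared by rods and cones, Otx2 differed little, whereas Crx was far below PBS in 2 libraries. Otx2 (ENSMUSG00000021848, chromosome 14, 48657677 to 48673819) had 61.4, 45.0, 43.9 and 57.0 FPKM in sIVs, against 58.6, 58.0, 55.5 and 52.0 FPKM in PBS. Libraries 3 and 4 were below all PBS libraries and library 2 above them. Over all libraries the log2 difference of Otx2 by edgeR was -0.11 ± 0.11 (SE, adjusted p = 0.664), and 0.07 ± 0.07 without libraries 3 and 4. Its antisense neighbour Otx2os1 shares 154 exon bases with it and held 9.93% to 12.1% as many counts, and since the strand setting of the counting was not given, reads of the pair may be mixed.

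Crx (ENSMUSG00000041578, chromosome 7, 15865947 to 15879968), whose promoter carries the homeodomain letters shown above, had 333, 131, 125 and 301 FPKM in sIVs, against 290, 283, 295 and 276 FPKM in PBS. It was at 45.9% and 43.7% of the PBS mean CPM in libraries 3 and 4, and above every PBS library in libraries 2 and 5. No sIVs library lay within the PBS range. The mean difference of Crx on the log2 scale was -0.36 ± 0.30 (SE, edgeR adjusted p = 0.596), and 0.15 ± 0.08 without libraries 3 and 4.

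Neurod1 (ENSMUSG00000034701, chromosome 2, 79452521 to 79456751) had 267, 133, 133 and 283 FPKM in sIVs, against 234, 238, 203 and 178 FPKM in PBS. Like Crx it was below the PBS range in libraries 3 and 4 and above it in libraries 2 and 5, and these opposite differences nearly cancelled in the mean. Its log2 fold change was -0.07 ± 0.25 (SE, edgeR adjusted p = 0.925). Without libraries 3 and 4 it turned to 0.36 ± 0.11 (SE, edgeR adjusted p = 0.232, unadjusted p under 0.05), the largest positive value of the 10 factors in that fit. At an unadjusted p under 0.05, 2 of 10 factors passed in that fit, Neurod1 higher and Thrb lower, against 2510 of 18261 genes. Neurod1 was already positive, at 0.09, with either library alone left out. Cerkl, a gene of the same strand linked to retinal degeneration in humans, shares 201 exon bases with Neurod1, which is 7.37% of Neurod1's exons, and held 7.90% to 10.3% as many counts, so a small part of the counts is uncertain.

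Prdm1 (ENSMUSG00000038151, chromosome 10, 44437177 to 44528501) was a low transcript, with 3.95, 1.80, 2.00 and 3.71 FPKM in sIVs, against 4.29, 4.71, 4.46 and 3.60 FPKM in PBS. Libraries 3 and 4 were below all PBS libraries and libraries 2 and 5 within their range. The edgeR log2 fold change of Prdm1 was -0.58 ± 0.25 (SE, adjusted p = 0.309), and -0.16 ± 0.12 without libraries 3 and 4.

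Among the rod factors, Nrl and Esrrb had the largest differences of the 10. Nrl (ENSMUSG00000040632, chromosome 14, 55518978 to 55524981) had 212, 47.3, 43.6 and 166 FPKM in sIVs, against 212, 177, 211 and 204 FPKM in PBS. Library 2 was within the PBS range and the other three below it, libraries 3 and 4 at 23.5% and 21.7% of the PBS mean CPM. Over the 4 libraries edgeR put Nrl at a log2 fold change of -0.78 with an SE of 0.46 (adjusted p = 0.45). Without libraries 3 and 4 it was -0.10 ± 0.11.

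Esrrb (ENSMUSG00000021255, chromosome 12, 86361117 to 86521628) had 62.8, 13.7, 11.5 and 56.4 FPKM in sIVs, against 66.9, 61.5, 61.8 and 69.3 FPKM in PBS. Its pattern was that of Nrl: library 2 inside the PBS range, library 5 a little below, and libraries 3 and 4 at 21.1% and 17.7% of the PBS mean CPM. Esrrb had the lowest log2 fold change of the 10, -0.85 ± 0.49 (SE, edgeR adjusted p = 0.445), and -0.13 ± 0.08 without libraries 3 and 4. The ratio of Esrrb to Nrl in FPKM stayed at 0.296, 0.289, 0.264 and 0.341 in sIVs, against 0.315, 0.348, 0.292 and 0.340 in PBS, and the groups overlapped.

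Nr2e3 (ENSMUSG00000032292, chromosome 9, 59942771 to 59960659) had 124, 48.6, 47.4 and 131 FPKM in sIVs, against 119, 118, 137 and 93.4 FPKM in PBS. It was at 41.7% and 40.5% of the PBS mean CPM in libraries 3 and 4, and within the PBS range in libraries 2 and 5. Its log2 fold change was -0.42 ± 0.33 (SE, edgeR adjusted p = 0.577), and 0.12 ± 0.12 without libraries 3 and 4. Nr2e3, which acts downstream of Nrl, was the less reduced of the pair. The ratio of Nr2e3 to Nrl in FPKM was 0.583, 1.03, 1.09 and 0.792 in sIVs, against 0.559, 0.671, 0.649 and 0.458 in PBS. Libraries 3, 4 and 5 were above every PBS library in this ratio.

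Mef2d (ENSMUSG00000001419, chromosome 3, 88142372 to 88172086), which many other cell types also express, had 91.1, 65.7, 61.0 and 107 FPKM in sIVs, against 88.6, 93.7, 88.2 and 81.4 FPKM in PBS. Libraries 3 and 4 were below the PBS range and library 5 above it. The log2 fold change was -0.12 ± 0.17 (SE, edgeR adjusted p = 0.767), and 0.16 ± 0.09 without libraries 3 and 4.

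The cone factors Thrb and Rxrg differed less than Nrl and Esrrb. Thrb (ENSMUSG00000021779, chromosome 14, 17660261 to 18038090) had 10.2, 7.81, 7.40 and 9.98 FPKM in sIVs, against 10.8, 11.3, 11.4 and 11.4 FPKM in PBS. In all 4 sIVs libraries Thrb was lower than in any PBS library, the 1 factor of 10 for which this held, against 3.36% of all genes. The 4 PBS values were close together, with means of 8.86 ± 1.46 FPKM in sIVs and 11.2 ± 0.28 FPKM in PBS. Its log2 fold change of -0.35 ± 0.11 (SE) had an edgeR adjusted p of 0.209. Without libraries 3 and 4 it was -0.16 ± 0.07 (SE, edgeR adjusted p = 0.331, unadjusted p under 0.05). With sIVs library 2 alone left out, Thrb was the 1 factor of 10 called (-0.42, edgeR adjusted p = 0.0429), against 7.39% of all genes. Gene counts pool the isoforms, so the cone isoform was not measured on its own.

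Rxrg (ENSMUSG00000015843, chromosome 1, 167598384 to 167639623) had 4.06, 3.07, 3.83 and 2.77 FPKM in sIVs, against 3.75, 3.76, 3.80 and 4.30 FPKM in PBS. Here the low libraries were 3 and 5, not 3 and 4, and the groups overlapped. The log2 fold change was -0.19 ± 0.15 (SE, edgeR adjusted p = 0.583) and hardly moved without libraries 3 and 4, at -0.20 ± 0.18.

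**Figure D3:**
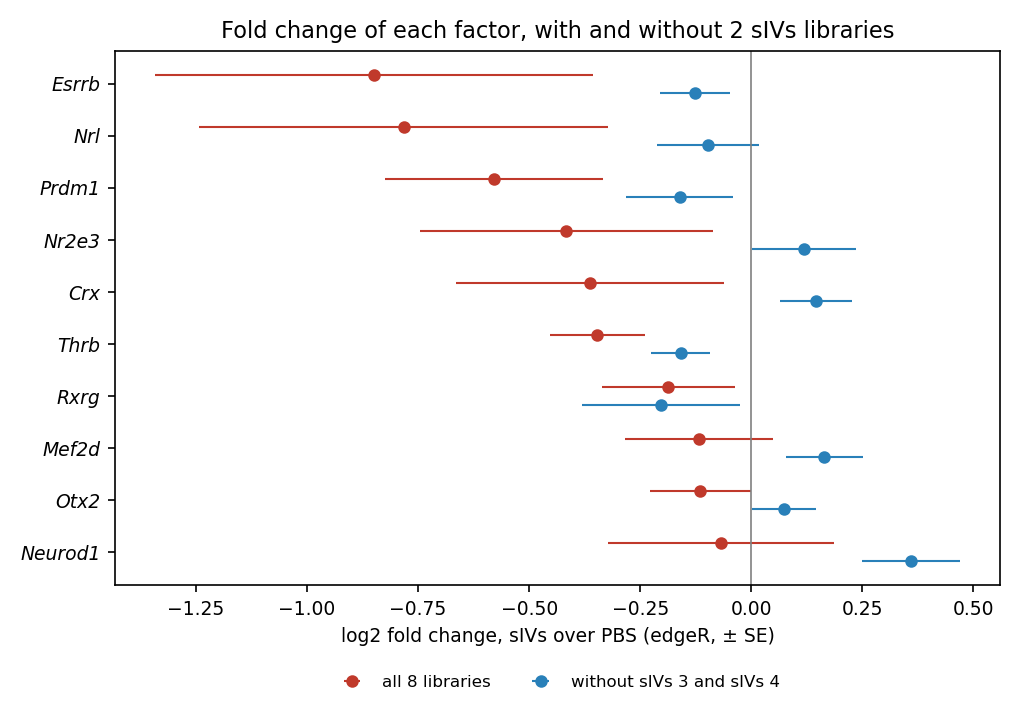
edgeR log2 fold change of each factor, sIVs over PBS, with its SE, from all 8 libraries (red) and without sIVs libraries 3 and 4 (blue). Over all libraries the values run from -0.85 for Esrrb to -0.07 for Neurod1, and without the 2 libraries from -0.20 for Rxrg to 0.36 for Neurod1.

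The proportions between the factors shifted in libraries 3 and 4. The ratio of Crx to Nrl in FPKM was 1.57, 2.77, 2.86 and 1.82 in sIVs, against 1.36, 1.60, 1.39 and 1.35 in PBS. The ratio of Otx2 to Crx was 0.184, 0.344, 0.351 and 0.189 in sIVs, against 0.202, 0.205, 0.189 and 0.188 in PBS. Nrl thus made up less, and Otx2 more, relative to Crx in these libraries. The ratio of Neurod1 to Nrl was 1.26, 2.81, 3.05 and 1.71 in sIVs, against 1.10, 1.35, 0.960 and 0.873 in PBS. The ratio of Neurod1 to Crx was 0.801, 1.01, 1.07 and 0.938 in sIVs, against 0.807, 0.844, 0.689 and 0.645 in PBS. In these 4 ratios libraries 3 and 4 were above every PBS library, and in all but that of Otx2 to Crx library 5 was too.

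Whether a factor differed as far as a list of effector genes was tested for 4 pairs. The value used was the factor's log2 CPM minus the median of the effectors, each relative to its PBS mean. Crx, which acts in both rods and cones, was set against the rod effectors only. In sIVs libraries 3 and 4 the cone effector medians were -0.84 and -0.65, and the rod effector medians -1.79 and -1.87. The part of cones in the Crx value was not tested. For Crx against the rod effectors that value was 0.14, 0.66, 0.67 and 0.33 in sIVs, against 0.03, 0.09, 0.02 and -0.12 in PBS. All 4 sIVs libraries were above all PBS libraries, with means of 0.45 ± 0.26 in sIVs and 0.01 ± 0.09 in PBS. The difference of 0.444 had an exact two-sided permutation p of 0.0286, the smallest that 70 relabellings can give, and an adjusted p of 0.114 over the 4 pairs. Without libraries 3 and 4 the difference was 0.227 (exact permutation p = 0.0667, the smallest possible there, adjusted p = 0.267). The difference thus did not pass after adjustment. With any 1 of the 4 PBS libraries left out it was between 0.442 and 0.468. Its exact permutation p was then 0.0571, so that it did not pass before adjustment there either. With any 1 of the 4 sIVs libraries left out it was between 0.37 and 0.548. Its exact permutation p was then 0.0286, the smallest possible, and its adjusted p between 0.0571 and 0.114.

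For Nrl the value was 0.00, -0.30, -0.33 and -0.02 in sIVs, against 0.09, -0.07, 0.05 and -0.04 in PBS. The groups overlapped (difference -0.17, exact permutation p = 0.171, adjusted p = 0.229). Thrb against the cone effectors gave 0.07, 0.32, 0.05 and 0.22 in sIVs and 0.12, 0.15, 0.01 and -0.28 in PBS (difference 0.164, exact permutation p = 0.257, adjusted p = 0.257). Rxrg gave 0.26, 0.50, 0.63 and -0.09 in sIVs and 0.12, 0.10, -0.05 and -0.16 in PBS (difference 0.325, exact permutation p = 0.143, adjusted p = 0.229). In neither did the groups separate. Without libraries 3 and 4 the differences were -0.02 for Nrl, 0.147 for Thrb and 0.087 for Rxrg.

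**Figure D4:**
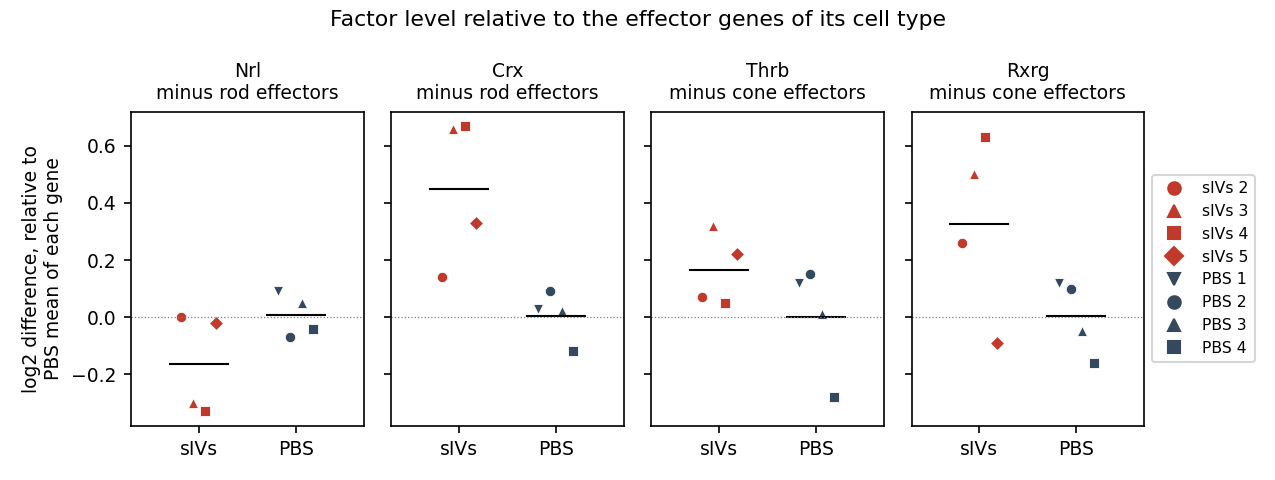
log2 CPM of Nrl and Crx minus the rod effector median, and of Thrb and Rxrg minus the cone effector median, per library, with bars for the group means, sIVs left of PBS. For Crx the 4 sIVs libraries lie between 0.14 and 0.67 and the highest PBS library at 0.09, and in the other panels the groups overlap.

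Most effectors also had lower mean levels. All 25 rod effectors had negative log2 fold changes, with a median of -0.70, and of -0.09 without libraries 3 and 4. Of the 25, 3 were lower at an unadjusted p under 0.05, against 5.63% of all genes, and 0 of 25 passed the adjusted edgeR test. Gnat1, the rod transducin alpha subunit gene, had 2090, 422, 409 and 1490 FPKM in sIVs, against 1940, 1850, 2050 and 2410 FPKM in PBS. Its log2 fold change was -0.91 (edgeR adjusted p = 0.401), and -0.21 without libraries 3 and 4. The disc rim protein genes Prph2 and Rom1 were at -0.70 and -0.57 (adjusted p = 0.461 and 0.488) and Pde6b at -0.65 (adjusted p = 0.533). Prph2 was at -0.05, Rom1 at 0.02 and Pde6b at 0.04 without libraries 3 and 4. Of 15 cone effectors 13 had negative log2 fold changes. In this list 11 of 15 were lower at an unadjusted p under 0.05, against 5.63% of all genes, and 0 passed after adjustment. Their median was -0.60, and -0.31 without libraries 3 and 4. Their sum ran from 1728 to 2255 CPM in sIVs and from 2435 to 2991 CPM in PBS, which do not overlap. PBS library 4 held the highest sum, and PBS libraries 1 to 3 had 2435, 2450 and 2525 CPM. Relative to the PBS mean, the cone effector medians were -0.21, -0.84, -0.65 and -0.40 in sIVs. In PBS they were -0.18, -0.15, 0.01 and 0.31. By this median sIVs library 2 was close to PBS libraries 1 and 2. The opsin genes Opn1sw and Opn1mw were at -1.44 and -1.02 (edgeR adjusted p = 0.236 and 0.37), while Gnb3, a transducin beta subunit gene that ON bipolar cells also express, was at 0.15 (adjusted p = 0.517). These were at -0.74, -0.29 and 0.13 without libraries 3 and 4.

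Of 50 other regulators of photoreceptor fate, 47 were tested (Olig2, Foxn4 and Ptf1a were too low). Their log2 fold changes were split, 24 negative and 23 positive, with a median of -0.01, and of -0.09 without libraries 3 and 4, and none passed the adjusted edgeR test. At an unadjusted p under 0.05, 8 were lower (5.63% of all genes) and 4 higher (9.61% of all genes). Rorb, an orphan nuclear receptor upstream of Nrl, had 306, 180, 190 and 262 CPM in sIVs, against 311, 310, 322 and 314 CPM in PBS. All 4 sIVs values of Rorb were lower than any PBS value, and edgeR gave it -0.42 ± 0.16 on the log2 scale (SE, adjusted p = 0.266), and -0.15 without libraries 3 and 4.

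Pou2f1, a POU factor tied to cone production, was at -0.41 ± 0.10 (adjusted p = 0.168) and at -0.31 without those libraries. Mef2c, a relative of Mef2d, was at -0.85 ± 0.28 (adjusted p = 0.228) and at -0.41 without them, and Esrrg, a relative of Esrrb, at -0.30 ± 0.09 (adjusted p = 0.205) and -0.25. Hes5, a Notch target, was at -1.02 ± 0.39 (adjusted p = 0.275), Nr2f2 at -0.25 ± 0.11 (adjusted p = 0.307) and Meis1, a homeodomain factor of progenitors, at -0.16 ± 0.06 (adjusted p = 0.298), all from the edgeR fit with SE. Without those libraries Hes5 was at -0.57, Nr2f2 at -0.33 and Meis1 at -0.08. The higher ones named were Sox2, a factor of Müller glia and progenitors, at 0.61 ± 0.15 (adjusted p = 0.168), Sox11 at 0.46 ± 0.19 (adjusted p = 0.304) and Neurog2 at 1.51 ± 0.45 (adjusted p = 0.198). Sox2 and Sox11 were at 0.32 and 0.23 without them.

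Neurog2, a proneural factor that is active in dividing precursors, had 2.81, 17.2, 14.5 and 9.19 CPM in sIVs, against 3.28, 3.01, 4.44 and 4.63 CPM in PBS. Of the sIVs libraries, 3 were above every PBS library and library 2 was below them, and without libraries 3 and 4 its log2 fold change was 0.66. In the same comparison 11 of 12 reactive glia markers had positive log2 fold changes, with a median of 1.33 and of 0.80 without libraries 3 and 4, and their sum ran from 1629 to 3340 CPM in sIVs and from 842.8 to 1632 CPM in PBS. The part of glial cells in the levels of the regulators was not tested.

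The genes most like each factor over the 8 libraries were found by the root mean square difference in log2 CPM, each gene relative to its own mean, among 11941 protein-coding genes, for the 6 factors with an SD of at least 0.3. For Nrl they were Nt5e, Reep6 and Pde6g, at differences of 0.084, 0.086 and 0.090, and for Esrrb they included Pdc and Kcnj14, at 0.080 and 0.102. Nrl and Esrrb were each other's nearest factor, at 0.132. Among all the genes compared, Esrrb was in place 10 for Nrl and Nrl in place 6 for Esrrb. For Crx they were Tdrd7, Impdh1 and Adcy6, at 0.040, 0.058 and 0.059, and for Nr2e3 they were Llgl2, Samd11 and Ppp1r42, at 0.094, 0.101 and 0.107. Crx and Nr2e3 were also each other's nearest factor, at 0.139, but less closely. Nr2e3 was in place 102 for Crx and Crx in place 16 for Nr2e3. For Prdm1 they were Kank1, D430042O09Rik and Rgs9, at 0.070, 0.084 and 0.095, and for Neurod1 they were Zfyve28, Slc31a2 and Lgalsl, at 0.077, 0.083 and 0.087. All of these measures share the same 8 libraries.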

How the data were processed

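Retina RNA from 8 libraries was analysed, 4 sIVs and 4 PBS, grouped by their titles. Per the labels' protocols, TRIzol-extracted RNA was selected for poly(A) and dUTP strand-marked libraries were sequenced as paired reads. The submitters' processing notes name the mm10 build. The sources used here do not name the aligner, counting program, annotation release or strand setting. The authors deposited whole-number counts per gene, not normalised, and a matching table of FPKM. Within each library the deposited FPKM equal the count per length and total times 1 constant, from 0.930 to 1.033. Of the gene identifiers 54409 are also in GENCODE M21 (GRCm38), 53499 with identical start and end. All 10 factors are among these, and their deposited length equals the summed exon length, introns excluded.

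Counts were filtered with filterByExpr, scaled by TMM and tested with glmQLFit and glmQLFTest in edgeR 4.0.16 (R 4.3.3), with the group as the only term and Benjamini-Hochberg adjustment over 17725 genes at 0.05. Standard errors are the log2 fold change divided by the square root of F. The fold change of edgeR compares group mean levels. log2 CPM used a prior count of 2. On simulated counts for 17725 genes of this comparison, edgeR called 29.7% of 64 genes changed 1.5-fold, 66.7% of 66 changed 2-fold, 91.9% of 62 changed 4-fold and 9 of 17252 unchanged genes. The simulation gave both groups the same dispersion per gene. The real coefficients of variation were 22.3% in sIVs and 8.8% in PBS, so these shares may not hold for the factors. Alternatives were DESeq2 1.42.0, limma 3.58.1 (voom with and without sample quality weights, and log2(FPKM + 0.1) and log2(FPKM + 1)), other scalings and filters, each library left out, blocks by the labels' numbers and, added after the data were seen, both sIVs libraries 3 and 4 left out.

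The factors and gene lists were chosen with earlier results of these data known. Named besides the 10 factors were the other regulators with an unadjusted p under 0.05 (at most 10, by smallest p), the 3 rod and cone effectors of highest PBS FPKM that can be reported, with Pde6b, Opn1sw and Opn1mw, and the 3 protein-coding genes of at least 5 CPM most like each factor. A gene that these rules select is not reported here. Promoters are from RefSeq (GRCm38.p6), matched by symbol for all 10 factors.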

Additional observations from a re-analysis of the deposited data

Results flagged for a closer look

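Rxrg in the PBS group had 1 library away from the others. PBS library 4 stood at 9.96 CPM, and libraries 1 to 3 at 8.63, 8.66 and 8.75 CPM. The gap to the nearest library was 0.911 of the whole range, above Dixon's critical value for 4 samples. Chance flags about 1 in 20 groups, and 20 were looked at.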

How the results depend on the processing

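Of 200 values of a factor under another setting (10 factors, 20 settings), 183 kept their direction and side of the threshold, 10 came to pass it and 7 changed sign. The number of genes called, 0 with edgeR (2702 at an unadjusted p under 0.05), was 571 with DESeq2, 4973 with limma-voom and sample quality weights, 152 with no filter on low counts, and 0 to 1331 when a library was left out, with 1331 without sIVs library 2 (7.39% of genes tested). It was 3 without sIVs libraries 3 and 4: Gapdh (2.93), Gm10241 (-1.28) and Tnfrsf12a (1.26), named after their values were seen. Gapdh had 147 and 321 CPM in sIVs libraries 2 and 5, but 28.3 and 24.7 CPM in the left-out libraries 3 and 4. In PBS it had 29.5 to 32.9 CPM. The number of factors called was 9 with quality weights (28.1% of all genes), which gave sIVs libraries 2 and 5 weights of 0.258 and 0.245 and libraries 3 and 4 weights of 1.836 and 1.221. There Nrl was at -1.86 and Esrrb at -2.01 (limma adjusted p = 0.00175 and 0.0017), and Rxrg did not pass. It was 0 to 1 when a library was left out, the 1 being Thrb without sIVs library 2 (-0.42, edgeR adjusted p = 0.0429), and 0 otherwise. Neurod1 changed sign, to 0.09, without sIVs library 3 and likewise without sIVs library 4. Without both, Otx2 was at 0.07, Crx at 0.15, Neurod1 at 0.36, Nr2e3 at 0.12 and Mef2d at 0.16. The cause was not tested. Leaving out 1 library at a time, Nrl ran from -1.23 to -0.51, Esrrb from -1.25 to -0.55, Crx from -0.62 to -0.17, Nr2e3 from -0.68 to -0.21, Prdm1 from -0.77 to -0.41 and Thrb from -0.42 to -0.27. limma-voom, which averages logs, put Nrl at -1.12 and Esrrb at -1.25. Same-numbered libraries did not all deviate together (r = 0.00, 0.079 and -0.067 by title number, and -0.059, 0.072, 0.149 and 0.122 by biosample number). By biosample number, sIVs library 4 with PBS library 3 and sIVs library 5 with PBS library 4 exceeded the r of 0.1 set for pairing, and the others did not. Not every library correlated best with its own number. A replicate block called 0 genes and 0 factors by either number, with 2345 and 2464 genes, and 5 and 4 factors, at an unadjusted p under 0.05. Depth limits Rxrg most, at 107 counts in its lowest library.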

Other observations

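Among the marker lists of other retinal cells, the 12 ganglion cell markers all had negative log2 fold changes, with a median of -0.20 and of -0.24 without sIVs libraries 3 and 4. Their sum ran from 1099 to 1169 CPM in sIVs and from 1189 to 1541 CPM in PBS, and 0 of 12 passed the adjusted edgeR test. The 1541 CPM were those of PBS library 4, and PBS libraries 1 to 3 had 1194, 1189 and 1233 CPM. The 13 pigment epithelium markers varied between PBS libraries, with sums from 73.02 to 174.3 CPM in sIVs and from 86.33 to 349.2 CPM in PBS, and a median log2 fold change of -0.42, and of -0.35 without sIVs libraries 3 and 4. The 10 vessel markers had a median log2 fold change of 0.23, which turned to -0.06 without sIVs libraries 3 and 4. The 12 amacrine and 6 tested horizontal cell markers had medians of -0.08 and -0.11, and of -0.23 and -0.19 without those libraries, and none of these lists held a gene past the adjusted edgeR threshold.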
